A study of Mus musculus with 30 samples.

Results

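Lipid-associated macrophage genes are transcripts that macrophages raise when they take up and digest large amounts of fat. The 10 described here are Trem2, Gpnmb, Mmp12, Spp1, Cd9, Cd68, Itgax, Atp6v0d2, Lgals3 and Ctsk, chosen by gene symbol from the 55357 genes of the deposited table. The list was proposed with earlier results of these data in view, and which measured values it was selected on is not stated, so the levels and differences below describe these libraries and are not used as independent support for one another.

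In obese adipose tissue such macrophages gather around dying fat cells, and in fatty liver a related population appears among the resident Kupffer cells. TREM2 is a surface receptor that binds lipids and lipoproteins, apolipoprotein E among them, and signals inside the cell through the adaptor encoded by Tyrobp. The products of most other members act in or around the lysosome, at the cell surface, or outside the cell on the matrix, and several of them are also made by osteoclasts, epithelia or stromal cells.

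RNA came from C57BL/6N mice and from 3 tissues, namely liver, BAT (brown fat) and sWAT (commonly short for white fat under the skin). Every group was on HFD, commonly short for a diet high in fat. The HFD groups had that diet alone, and the imeglimin groups also had imeglimin, an oral drug that lowers glucose. Each of the 6 groups held 5 libraries, 30 in all, numbered 75, 76, 79, 80 and 83 for HFD and 86, 88, 89, 91 and 94 for imeglimin in each tissue, and values below follow that order. The dose, the length of treatment, and the sex and age of the mice are not given in the labels used here, and there was no group on a control diet. The design text states 4 against 4, the labels give 5 per group, and no label ties a library to an animal of its own. The p-values therefore gauge only how these libraries spread, and that spread could be technical. Values are TPM, each transcript's share of the library corrected for its length, a unit that keeps no record of sequencing depth. At least 1 TPM was reached by 11020 to 11896 genes in BAT, 11274 to 11673 in liver and 13491 to 15355 in sWAT.

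The tissue labels matched their defining transcripts. Ucp1, the uncoupling protein of brown fat, lay between 4100 and 5950 TPM in BAT and at most at 1.53 TPM elsewhere. Alb, which encodes albumin, lay between 45800 and 63700 TPM in liver. Adipoq, which encodes adiponectin, lay between 2950 and 6610 TPM in sWAT. Some libraries stood apart. In imeglimin sWAT 88, Cd79a of B cells reached 589 TPM, where no other sWAT library exceeded 2.28 TPM, and Alb reached 6880 TPM. The main sWAT results of the members are therefore given with and without it. BAT HFD 79 and BAT imeglimin 94 held 1800 and 1490 TPM of Acta1, the skeletal muscle actin.

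On HFD alone, the list was expressed mainly in sWAT. The summed TPM of the 10 members ranged from 522 to 1010 in HFD sWAT, from 67.5 to 96.1 in HFD liver and from 22.7 to 60.9 in HFD BAT. In sWAT, Lgals3 held 46.4% of the members' sum on average over the 10 libraries, Cd68 15.2%, Ctsk 14.6% and Cd9 11.4%, while Trem2 held 1.04%. In liver, Spp1 alone held 62.2%. In BAT, Lgals3 held 29.1%, Cd9 23.0% and Cd68 20.6%. On average over both treatments, the make-up of the list therefore differed by tissue, with a galectin leading in both fat depots and osteopontin leading in liver. In the imeglimin BAT group alone, Cd9 had the higher mean, at 6.62 TPM against 5.74 TPM for Lgals3.

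**Figure D1:**
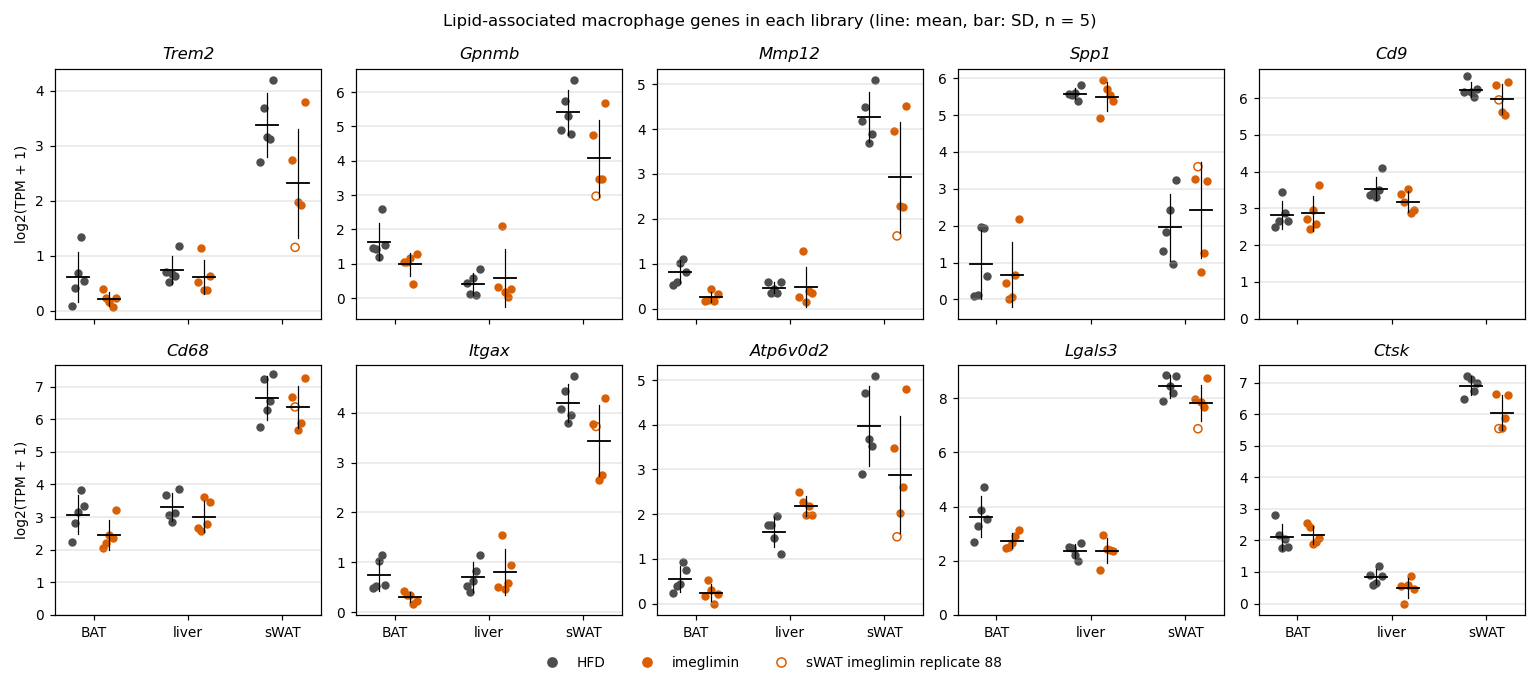
Levels of the 10 members in each library, as log2(TPM + 1) on the vertical axis, by tissue and treatment on the horizontal axis; points are libraries, lines are means and bars are SD (n = 5 per group), and the open point is imeglimin sWAT 88. Apart from Spp1, which was highest in liver, every member was highest in sWAT.

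Among the surface receptors, Trem2 stood at 10.1 ± 4.67 TPM in sWAT, 0.689 ± 0.324 TPM in liver and 0.595 ± 0.555 TPM in BAT on HFD alone (mean ± SD, n = 5 throughout). Its 5 HFD sWAT values were 5.51, 11.9, 7.96, 7.67 and 17.3 TPM, and the highest value in either other HFD group was 1.52 TPM, so sWAT did not overlap them. The liver and BAT values did overlap, most of them below 1 TPM, and their mean log2 difference was 0.13 (SE 0.26). Itgax, which encodes the integrin CD11c of dendritic cells and of macrophages in obese fat, was likewise far higher in sWAT, with 17.8 ± 5.19 TPM in sWAT against 0.661 ± 0.358 TPM in liver and 0.709 ± 0.383 TPM in BAT. Cd9, a tetraspanin found on many cell types, was less confined, with 74.9 ± 12.2 TPM in sWAT, 10.8 ± 2.94 TPM in liver and 6.29 ± 2.11 TPM in BAT.

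Among the lysosomal members, Cd68, a glycoprotein of macrophage endosomes and lysosomes, had 108 ± 48.9 TPM in HFD sWAT, 9.30 ± 3.19 TPM in liver and 7.99 ± 3.56 TPM in BAT. Gpnmb, a membrane glycoprotein of lysosomes that is induced under lysosomal stress, had 45.5 ± 22.4 TPM in sWAT, 2.34 ± 1.52 TPM in BAT and 0.367 ± 0.308 TPM in liver. Ctsk, the collagen-degrading cathepsin K, had 121 ± 24.3, 3.48 ± 1.45 and 0.815 ± 0.305 TPM in sWAT, BAT and liver. Both genes thus stood lower in HFD liver than in HFD BAT, by a log2 difference of -1.22 (SE 0.30) for Gpnmb and -1.27 (SE 0.19) for Ctsk. Atp6v0d2, a membrane subunit of the proton pump that acidifies lysosomes, went the other way between these tissues, with 17.4 ± 11.2 TPM in sWAT, 2.11 ± 0.681 TPM in liver and 0.484 ± 0.301 TPM in BAT.

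Among the secreted members, Lgals3, which encodes the carbohydrate-binding galectin-3, had 360 ± 100 TPM in HFD sWAT, 12.9 ± 7.75 TPM in BAT and 4.20 ± 0.907 TPM in liver. Mmp12, the macrophage elastase, had 19.5 ± 8.47, 0.785 ± 0.312 and 0.383 ± 0.121 TPM in sWAT, BAT and liver. Spp1, which encodes osteopontin, a matrix protein and cytokine, was the exception. It stood at 47.2 ± 5.31 TPM in the liver, at 3.56 ± 3.04 TPM in sWAT and at 1.29 ± 1.46 TPM in BAT. Its HFD liver values were 46.7, 45.4, 47.9, 40.7 and 55.4 TPM, an SD of 11.2% of the mean, against 85.3% in sWAT and 113% in BAT.

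These tissue orders are a description. In the limma fit of the 15 HFD libraries all 10 members differed between sWAT and BAT and between liver and sWAT. Between liver and BAT, 6 of 10 differed. Of all 14023 genes tested, 90.2%, 91% and 74.6% were called, in that order, so nothing is read from the counts. Trem2, Mmp12 and Itgax entered this fit through sWAT, since fewer than 5 BAT and liver libraries reached 1 TPM. Their BAT and liver values sit near the pseudocount. The call of Spp1 between sWAT and BAT (limma, adjusted p = 0.0361) was lost without the filter (0.063), after median-ratio scaling (0.709) and in 6 of the fits that left out 1 library (0.0508 to 0.115), namely BAT 75, 76 or 83 or sWAT 76, 79 or 83. The median gene stood 1.26 higher in sWAT than in BAT on the log2(TPM + 1) scale. Relative to that shift the members stood higher by 1.501 (Trem2) to 3.55 (Lgals3), except for Spp1, which stood at -0.26. Liver stood 4.66 above sWAT for Spp1 relative to the median gene.

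Promoters of the members are shown because the levels of the members varied together across sWAT libraries. The RefSeq table of mouse promoters, build GRCm38.p6, matched 9 of the 10 members with 11 start sites, and Atp6v0d2 was not matched. The 250 bases before each start were searched on both strands for the AP-1 letters TGANTCA, the PU.1 core letters GAGGAA and the E-box CACGTG, which lysosomal regulators of the TFEB family can bind. PU.1 is a lineage factor of macrophages and AP-1 a stress-responsive factor. AP-1 letters stood in 4 of the 11 windows, each of a different member, against 6.75% of the 32851 promoters in the table. PU.1 letters stood in 5 of the 11, also of different members, against 23.3%. The E-box stood in 0 of 11, against 6.02%. A match is a description, not a binding site or a cause. The 5 windows of the 4 members with AP-1 letters follow, 5′ to 3′ on the strand of the gene, with AP-1 and PU.1 letters in capitals. They lie at chr17:48346151-48346400 (plus strand) for Trem2, chr11:69666171-69666420 (minus) for Cd68, chr7:128129300-128129549 (plus) for Itgax, and chr9:7344147-7344396 and chr9:7347124-7347373 (plus) for the first and second starts of Mmp12.
Trem2: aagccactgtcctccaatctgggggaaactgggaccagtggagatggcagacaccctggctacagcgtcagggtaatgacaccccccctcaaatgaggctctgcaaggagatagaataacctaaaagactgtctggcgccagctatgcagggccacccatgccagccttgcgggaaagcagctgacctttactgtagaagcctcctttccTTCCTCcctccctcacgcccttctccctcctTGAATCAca
Cd68: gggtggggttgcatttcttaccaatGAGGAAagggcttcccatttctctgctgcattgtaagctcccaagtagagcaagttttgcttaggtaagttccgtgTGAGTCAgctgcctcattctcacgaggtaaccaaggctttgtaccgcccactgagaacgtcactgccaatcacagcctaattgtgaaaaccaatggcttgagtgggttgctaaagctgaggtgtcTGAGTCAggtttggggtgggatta
Itgax: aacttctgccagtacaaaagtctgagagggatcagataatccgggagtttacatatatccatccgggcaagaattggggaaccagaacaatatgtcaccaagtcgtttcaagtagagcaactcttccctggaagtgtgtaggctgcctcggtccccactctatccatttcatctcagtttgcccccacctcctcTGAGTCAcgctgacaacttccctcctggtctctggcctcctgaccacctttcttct
Mmp12, first start: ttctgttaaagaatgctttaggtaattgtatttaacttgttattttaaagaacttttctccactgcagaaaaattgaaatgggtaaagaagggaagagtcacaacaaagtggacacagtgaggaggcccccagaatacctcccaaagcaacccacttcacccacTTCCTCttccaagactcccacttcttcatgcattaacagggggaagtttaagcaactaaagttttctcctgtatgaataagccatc
Mmp12, second start: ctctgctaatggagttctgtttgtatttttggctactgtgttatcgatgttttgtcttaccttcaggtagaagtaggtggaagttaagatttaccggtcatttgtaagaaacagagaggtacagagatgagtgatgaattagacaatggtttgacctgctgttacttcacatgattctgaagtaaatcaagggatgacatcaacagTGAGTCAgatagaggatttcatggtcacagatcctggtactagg
Trem2, Cd68 and Mmp12 each carried both kinds of letters, for Mmp12 in different windows, and Itgax carried AP-1 letters only. Cd68 carried AP-1 letters 2 times. The motifs do not overlap one another in these windows.

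The deposited table, which uses build GRCm39, places Trem2 on chromosome 17 (48653429 to 48661175, plus strand), Gpnmb on chromosome 6 (49013480 to 49047863, plus) and Mmp12 on chromosome 9 (7344381 to 7369499, plus). Spp1 lies on chromosome 5 (104582984 to 104588916, plus), Cd9 on chromosome 6 (125437229 to 125471754, minus) and Cd68 on chromosome 11 (69555039 to 69556979, minus). Itgax lies on chromosome 7 (127728719 to 127749829, plus) and Atp6v0d2 on chromosome 4 (19876841 to 19922605, minus). Lgals3 lies on chromosome 14 (47605208 to 47623617, plus) and Ctsk on chromosome 3 (95406567 to 95416673, plus). Apart from Gpnmb and Cd9, which share chromosome 6, the 10 members lie on different chromosomes.

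The main comparison asks how these transcripts differed with imeglimin on top of HFD. In sWAT, most members were lower with imeglimin in the mean, and none passed the test. With library 88 included, Trem2, Gpnmb, Mmp12 and Atp6v0d2 had the lowest ratios, between 0.455 and 0.544 of the HFD mean. Ctsk followed at 0.573 and Itgax at 0.612. Cd9 and Cd68 stood closer to HFD, at 0.856 and 0.827, and Spp1 was higher, at 1.69. Without library 88 the ratios were 0.531 for Gpnmb, 0.565 for Mmp12, 0.594 for Itgax, 0.599 for Trem2, 0.622 for Ctsk and 0.654 for Atp6v0d2. Atp6v0d2 then stood above Itgax and Ctsk, and Spp1 was at 1.33. In bulk tissue, fewer cells of a type and less RNA per cell cannot be told apart.

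The Trem2 values with imeglimin in sWAT were 5.66, 1.22, 2.94, 2.77 and 12.8 TPM, against the HFD values given above. Libraries 88, 89 and 91 fell below every HFD library, library 86 lay just above the lowest of them, and library 94 exceeded 4 of the 5, so the groups overlapped. On the log2(TPM + 1) scale used from here on, imeglimin stood at -1.06 against HFD (SE 0.45; limma, adjusted p = 0.41), and -0.77 without library 88.

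Gpnmb read 28.7, 52.7, 38.6, 26.4 and 80.9 TPM with HFD. It read 25.8, 6.84, 9.99, 10.1 and 50.6 TPM with imeglimin. Here 4 of 5 imeglimin libraries lay below all HFD libraries, and library 94 exceeded 3 of the 5. Gpnmb differed by -1.35 on the log2 scale (SE 0.50; limma, adjusted p = 0.367), and -1.07 without library 88.

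Mmp12 read 17.0, 21.6, 11.97, 13.7 and 33.1 TPM with HFD. It read 14.4, 2.07, 3.85, 3.82 and 21.9 TPM with imeglimin. The same libraries, 88, 89 and 91, were the low ones, and 86 and 94 lay within the HFD range. Mmp12 differed by -1.34 on the log2 scale (SE 0.52; limma, adjusted p = 0.383), and -1.01 without library 88.

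Ctsk had the smallest p of the members in sWAT. It read 87.4, 147, 139, 105 and 125 TPM with HFD and 99.1, 45.6, 46.2, 58.4 and 96.2 TPM with imeglimin. All 5 imeglimin libraries lay below the HFD mean, but libraries 86 and 94 exceeded the lowest HFD library, so the groups overlapped. Ctsk differed by -0.85 on the log2 scale (SE 0.24; limma, unadjusted p = 0.00504, adjusted p = 0.275), and it stayed between -1.002 and -0.726 when any 1 of the 10 libraries was left out.

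Itgax read 15.9, 20.6, 12.8, 14.5 and 25.6 TPM with HFD and 12.7, 12.2, 5.29, 5.70 and 18.6 TPM with imeglimin. Libraries 89 and 91 lay far below every HFD library and libraries 86 and 88 just below, while 94 exceeded 3 of the 5. The log2 difference was -0.76 (SE 0.32; limma, adjusted p = 0.409), or -0.83 without library 88. Dendritic cells also use Itgax, and library 88 held 1060 TPM summed over their marker list, against 152 to 295 TPM in the other sWAT libraries. Of that sum H2-Ab1 alone held 816 TPM, and Flt3 and Clec9a held 17.2 and 10.2 TPM, in a library with 589 TPM of Cd79a of B cells. The part of these cells in the Itgax value was not tested.

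Atp6v0d2 read 6.45, 25.1, 11.8, 10.5 and 33.0 TPM with HFD and 10.2, 1.81, 3.09, 5.13 and 27.0 TPM with imeglimin. Libraries 88, 89 and 91 lay below every HFD library, and 86 and 94 lay within the HFD range. The log2 difference was -1.09 (SE 0.61; limma, adjusted p = 0.517), or -0.74 without library 88. Lgals3 read 236, 470.3, 353, 290.1 and 448 TPM with HFD and 249.5, 116, 232, 207 and 434 TPM with imeglimin. Its groups overlapped too, at a log2 difference of -0.61 (SE 0.31; limma, adjusted p = 0.481), which was -0.37 without library 88.

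Spp1 parted from the rest in sWAT. It read 1.48, 2.57, 4.34, 0.943 and 8.47 TPM with HFD and 8.55, 11.1, 0.688, 1.41 and 8.24 TPM with imeglimin. Library 88, the lowest for 6 members, was the highest for Spp1. The log2 difference was 0.47 (SE 0.62; limma, adjusted p = 0.769), or 0.17 without that library. Library 88 also held 6880 TPM of Alb, and Spp1 was the member that stood highest in liver. The part of liver transcripts in its Spp1 value was not tested. Cd9 ranged from 63.8 to 95.5 TPM with HFD and from 45.3 to 85.8 TPM with imeglimin, and Cd68 from 52.9 to 168 TPM and from 50.0 to 154 TPM. Their 95% intervals of the log2 difference, -0.66 to 0.16 and -1.06 to 0.53, included a decrease, no change and an increase.

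Counted together, 0 of the 10 members were called in sWAT, where 0.0146% of the 13736 genes tested were called (limma), and 5 of 10 had an unadjusted p under 0.05, against 11.3% of all genes. The log2 difference was negative for 9 of 10 members, against 43.6% of all genes, with a median of -0.80 against 0.04. Without library 88 the counts were 0 called, against 0.0295% of 13562 genes, 3 with an unadjusted p under 0.05, against 12.8%, and 9 negative, against 49.3%, with a median of -0.73 against 0.00. No member had groups that did not overlap, which 3.05% of genes had, or 4.68% without library 88. The members share libraries and rise and fall together, so these are not 10 separate observations.

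**Figure D2:**
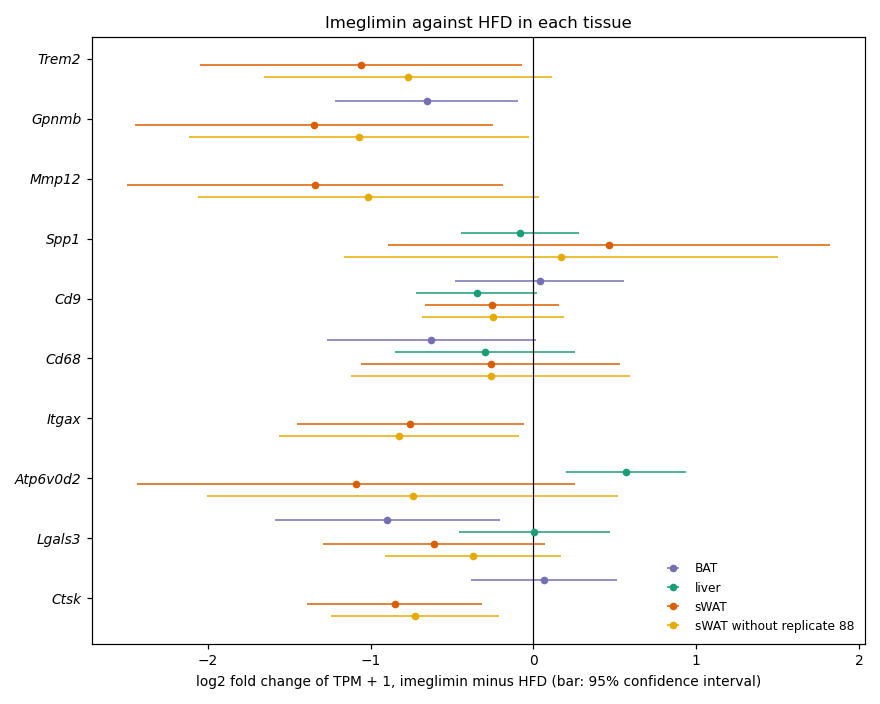
Log2 fold change of TPM + 1, imeglimin minus HFD, on the horizontal axis for each member that passed the filter in a tissue; points are limma estimates and bars 95% confidence intervals. In sWAT 9 of 10 estimates lie below 0, with and without library 88, and no member passed at an adjusted p of 0.05 in any tissue.

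The 5 imeglimin sWAT libraries were not alike. Imeglimin libraries 89 and 91 were among the 3 lowest of the 10 for all 10 members, and library 88 for 8. Imeglimin library 94 was among the 3 highest for 8 members, beside HFD 83, the highest for 6 members, and HFD 76, the highest for 3. The summed TPM of the members was 609, 340, 403, 398 and 909 in the imeglimin libraries and 522, 997, 726, 625 and 1010 in the HFD libraries. General macrophage transcripts, a list of 14 genes such as Adgre1, Csf1r and C1qa, summed to 895 to 2510 TPM with imeglimin, highest in library 88, and to 883 to 2150 TPM with HFD.

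**Figure D3:**
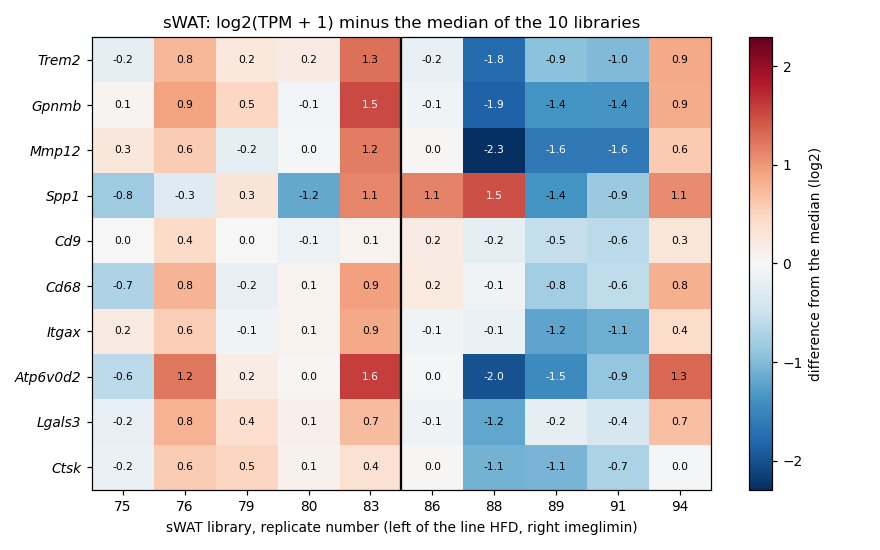
Each sWAT library (horizontal axis, HFD left of the line, imeglimin right) against each member (vertical axis), coloured and labelled by log2(TPM + 1) minus the median of the 10 libraries. Libraries 88, 89 and 91 are low and 76, 83 and 94 high for most members, and Spp1 in library 88 is the exception.

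Across the 10 sWAT libraries the members followed Trem2 closely. Gpnmb correlated with it at a Pearson r of 0.98 and a Spearman rho of 0.94 (permutation p = 1e-05, the smallest the resampling can give, and 0.00024; adjusted over 27 relations 0.000135 and 0.00216). Atp6v0d2 correlated at 0.98 and 0.99, Lgals3 at 0.96 and 0.96, Mmp12 at 0.95 and 0.88 and Ctsk at 0.88 and 0.81. Over all 10 libraries Spp1 did not follow, at an r of 0.17 and a rho of 0.18 (permutation p = 0.642 and 0.633). In all, 8 of 9 members passed in sWAT by both measures. The share of all genes that would pass the same threshold was not computed in any tissue, so nothing is read from these counts. Without the 2 libraries farthest from the Trem2 median, 83 and 88, 8 of 9 still passed by r, between 0.84 and 0.97, and 2 of 9 by rho. Spp1 reached an r of 0.65 once library 88 alone was left out, which did not pass (exact permutation p = 0.0654). Since Trem2 was itself lower in the imeglimin mean, part of each correlation is the difference between the groups.

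**Figure D4:**
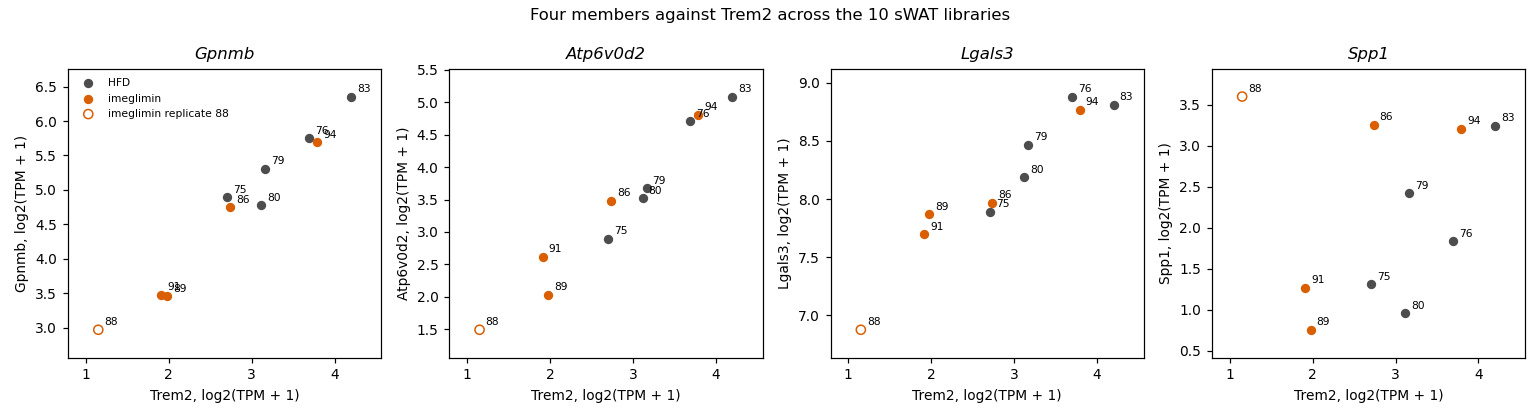
Gpnmb, Atp6v0d2, Lgals3 and Spp1 (vertical axes) against Trem2 (horizontal axes), all as log2(TPM + 1), in the 10 sWAT libraries, labelled by replicate number. The first 3 lie along a line in both treatment groups, and Spp1 in library 88 lies far above the other libraries of low Trem2.

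With the treatment means removed and library 88 left out, the members still varied together over 9 sWAT libraries. The median r of a member to the other 9 was highest for Trem2 at 0.92, Gpnmb and Atp6v0d2 at 0.90, and lowest for Lgals3 at 0.75. For Spp1, which did not follow Trem2 with library 88 included, it was 0.82. The genes outside the list whose pattern was most like the members', by the median r to all 10, were Gas2l3 at 0.95, Dock2 at 0.935, Cd200r1, Uap1l1 and Itgb2 at 0.93 each. Dock2 is a Rac activator of blood cells, Cd200r1 an inhibitory receptor of myeloid cells, and Itgb2 the beta subunit that pairs with the product of Itgax. The members were less alike in the other tissues. In BAT 6 of 9 members correlated with Trem2 over 10 libraries and in liver 3 of 9 by r, and 3 of 9 and 2 of 9 by rho. The share of all genes was not computed here either. Without the 2 libraries farthest from the Trem2 median, which leaves 8 libraries and a narrower range of Trem2, 0 of 9 passed in either tissue, with a median r of 0.53 in BAT, where it had been 0.81, and of 0.20 in liver, where it had been 0.54. Trem2 did not pass the filter in either tissue. The genes most like the members that passed the filter were Capg, Hsf4, S100a4, Ccl9 and Prorsd1 in BAT, at a median r of 0.76 to 0.81, and Gc, Ehd4, Ctss, Gbp9 and Cdc42ep2 in liver, at 0.65 to 0.69.

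Set against general macrophage transcripts, 9 of 10 members still stood lower with imeglimin in sWAT, although Cd9 and Cd68 turned to 0.041 and 0.032 when Adgre1 and Csf1r alone were the reference. The mean log2(TPM + 1) of the 14 genes was 5.30 ± 0.43 with HFD and 5.24 ± 0.42 with imeglimin (SD, 5 libraries each), and 5.10 ± 0.33 with imeglimin without library 88, which took the difference from -0.07 to -0.20. After that level was subtracted, Ctsk was lower with imeglimin by -0.79 on the log2 scale, Itgax by -0.69, Trem2 by -0.996 and Gpnmb and Mmp12 by -1.28 each. Exact two-sided permutation tests gave p = 0.0159 for Ctsk, 0.0397 for Itgax, 0.0556 for Trem2 and 0.0714 for Gpnmb and Mmp12, and each had an adjusted p of 0.238 over the 20 tests made in the 3 tissues. None passed, and with 5 against 5 the smallest possible p is 0.00794. Even at that p a member alone could not pass after adjustment over the 20 tests, so nothing is read from the failure to pass. Without library 88 the Ctsk difference was -0.52 (exact permutation p = 0.0476, adjusted p = 0.317), with all 4 remaining imeglimin libraries below the HFD mean, and the differences were -0.57 for Trem2, -0.87 for Gpnmb, -0.81 for Mmp12 and -0.62 for Itgax. Atp6v0d2 went from -1.03 to -0.54 and Lgals3 from -0.55 to -0.17 when that library was left out.

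**Figure D5:**
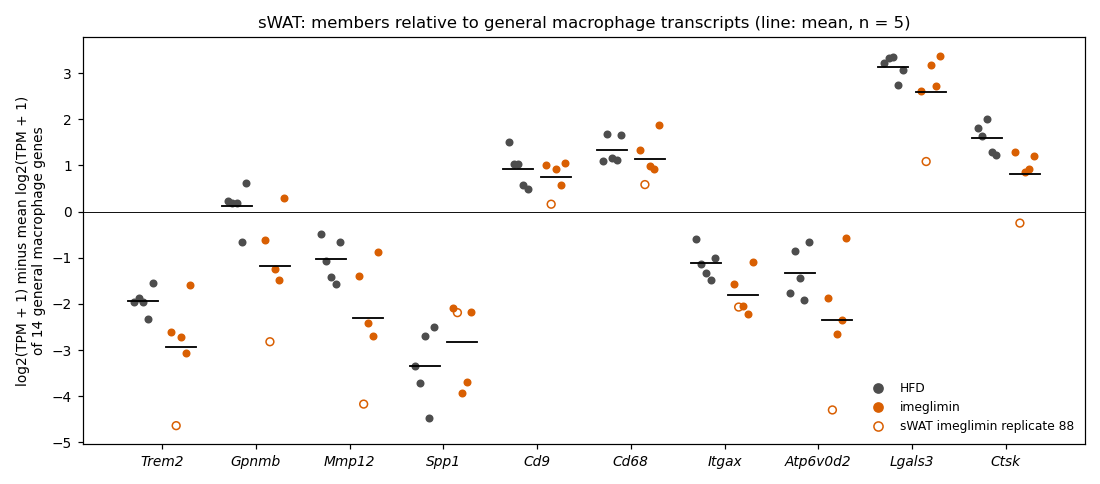
Log2(TPM + 1) of each member minus the mean log2(TPM + 1) of 14 general macrophage genes in each sWAT library (vertical axis) by member and treatment (horizontal axis); lines are means (n = 5), and the open point is library 88. Library 88 lies lowest for every member but Itgax and Spp1, and the remaining imeglimin libraries overlap the HFD libraries for most members.

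In BAT, the members that could be tested were few and low, and none was called. A member entered the test where 5 or more libraries held 1 TPM or more, which left 5 of the 10 in BAT, namely Gpnmb, Cd9, Cd68, Lgals3 and Ctsk, and 0 of them passed, where 0.868% of 11402 genes did (limma). Of the 5, 2 had an unadjusted p under 0.05, against 24.3% of all genes. The whole tissue was shifted, since 76.9% of genes had a negative difference and the median was -0.12, a shift that median-ratio scaling brought to 0.01. Skeletal muscle transcripts also differed, with all 5 genes of that list negative at a median of -2.70, and their part in the members' values was not tested.

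Lgals3 read 5.51, 8.66, 13.8, 25.6 and 10.7 TPM with HFD and 4.58, 4.69, 5.24, 6.54 and 7.68 TPM with imeglimin in BAT. Only the lowest HFD library, 75, fell within the imeglimin range. The log2 difference was -0.90 (SE 0.31; limma, adjusted p = 0.121), or -0.78 relative to the median gene, and -0.93 without the muscle-bearing libraries 79 and 94. Gpnmb read 1.75, 1.68, 1.29, 5.02 and 1.94 TPM with HFD and 1.07, 1.06, 1.23, 0.338 and 1.42 TPM with imeglimin. Imeglimin 94 overlapped the lowest HFD library, and the log2 difference was -0.66 (SE 0.25; limma, adjusted p = 0.149), or -0.84 without libraries 79 and 94. Cd68 ranged from 3.72 to 13.2 TPM with HFD and from 3.10 to 8.21 TPM with imeglimin, at a log2 difference of -0.63 (SE 0.29; limma, adjusted p = 0.212).

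Cd9 and Ctsk were close to level in BAT, at log2 differences of 0.04 (95% interval -0.48 to 0.56) and 0.06 (-0.39 to 0.51). Ctsk in BAT thus stood apart from Ctsk in sWAT, but the test of that difference between tissues, 0.92 (SE 0.31; limma, adjusted p = 0.11), did not pass. General macrophage transcripts moved with the lower members in BAT. Their sum was 105, 135, 185, 255 and 189 TPM with HFD and 120, 125, 138, 95.2 and 151 TPM with imeglimin, and all 11 of the 14 that were tested had negative differences, none called. HFD library 80, the highest of the 10 for 7 members, was also the highest for that sum. After the macrophage level was subtracted, Lgals3 still stood lower by -0.61 (exact permutation p = 0.0397, adjusted p = 0.238). It did not pass, in the same set of tests that a member alone could not pass.

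The other 5 members were low in BAT, and for a pair of them the groups did not overlap. Mmp12 read 0.444, 0.518, 1.03, 1.16 and 0.772 TPM with HFD and 0.131, 0.148, 0.352, 0.130 and 0.259 TPM with imeglimin. Itgax read 0.397, 0.433, 1.04, 1.21 and 0.471 TPM with HFD and 0.344, 0.273, 0.265, 0.131 and 0.173 TPM with imeglimin. All imeglimin libraries lay below all HFD libraries for both genes, a separation that 6.81% of the genes passing the filter had in BAT. Neither gene passed that filter, and the share among genes as low as these was not computed. Tested without the filter, the log2 differences were -0.55 for Mmp12 and -0.44 for Itgax (limma, adjusted p = 0.0979 and 0.179). Trem2 ranged from 0.0591 to 1.52 TPM with HFD and from 0.0423 to 0.310 TPM with imeglimin, a level at which the precision is unknown. Atp6v0d2 lay below 1 TPM in every BAT library, and Spp1 ranged from 0 to 3.54 TPM with no order by treatment.

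In liver, the members gave no call, and the one that separated the groups was higher with imeglimin. Atp6v0d2 read 2.40, 2.37, 1.75, 2.91 and 1.14 TPM with HFD and 4.67, 3.84, 2.92, 3.50 and 2.94 TPM with imeglimin. Every imeglimin library exceeded every HFD library, by a narrow margin between HFD 80 and imeglimin 89. Of the 11516 genes tested in liver, 0.695% had groups that did not overlap, or 1.34% without liver 88, where Atp6v0d2 was still apart. The log2 difference was 0.57 (SE 0.17; limma, unadjusted p = 0.00574, adjusted p = 0.984), and 0 of the 5 members that passed the filter were called, as were 0% of all genes, while 4.2% of genes had an unadjusted p under 0.05. The 16 other proton pump subunits examined stood level in liver, with a median log2 difference of 0.03, 10 of 16 positive and none called.

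Spp1 in liver read 29.1, 61.0, 50.9, 46.1 and 40.9 TPM with imeglimin, around the HFD values given above, at a log2 difference of -0.08 (95% interval -0.44 to 0.28). A list of 6 bile duct and epithelial markers stood beside it, at a summed 473 to 516 TPM with HFD and 460 to 698 TPM with imeglimin. The defining bile duct genes among them were low, with Krt19 at most at 2.37 TPM, Krt7 at 0.497 TPM and Epcam at 2.17 TPM in liver. The part of bile duct cells in the Spp1 level was not tested.

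Liver library 88 was also unlike its group. Trem2 reached 1.19 TPM there against 0.296 to 0.551 TPM in the other imeglimin livers, Gpnmb 3.29 TPM against at most 0.250 TPM, and Mmp12 1.42 TPM against at most 0.304 TPM. This library was the highest of the 10 for 5 members, while its summed Kupffer cell markers, 62.7 TPM, were the lowest of the 10, the others lying between 115 and 266 TPM. All 6 Kupffer markers had negative differences with imeglimin in liver, at a median of -0.43, and none was called. Without library 88, 5 of the 6 were negative, at a median of -0.09. Leaving liver 88 out, the fit called 0 of 5 members, against 0% of 11432 genes, and Atp6v0d2 stood at 0.55.

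The difference in response between tissues was tested directly in a fit of all 30 libraries, where all 10 members entered. None was called between BAT and sWAT, BAT and liver, or liver and sWAT, where 2.05%, 0.167% and 0.127% of 14953 genes were. The widest gaps lay between liver and sWAT, at 1.66 for Atp6v0d2 (SE 0.58; limma, adjusted p = 0.285), 1.51 for Gpnmb (SE 0.59; adjusted p = 0.362) and 1.36 for Mmp12 (SE 0.51; adjusted p = 0.339). A positive value means a lower estimate in sWAT than in liver. Trem2, Mmp12 and Itgax entered this fit through sWAT, while Gpnmb passed the filter in BAT as well. In liver 1 of 10 libraries, imeglimin 88, reached 1 TPM for Gpnmb or Mmp12, so the liver estimates of both sit near the pseudocount. Without liver 88 the gaps were 1.13 for Gpnmb and 1.16 for Mmp12. Without sWAT library 88 the gaps of Atp6v0d2, Gpnmb and Mmp12 were 1.31, 1.24 and 1.03, and no member was called between BAT and sWAT or liver and sWAT, against 3.51% and 0.236% of 14844 genes. Leaving out sWAT imeglimin 94 brought the count between liver and sWAT to 1.

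Genes around the members in the same pathways were examined as lists. In sWAT, none of the 13 genes of TREM2 ligands and signalling was called, and 8 had positive differences, or 2 without library 88. Apoe, the lipoprotein ligand of TREM2, stood higher with imeglimin by 0.85 (limma, adjusted p = 0.248), or 0.68 without library 88. Lpl, the lipase that frees fatty acids from lipoproteins, stood at -0.48 (limma, adjusted p = 0.422). Of 12 other lipid-handling genes, 9 were negative and none was called, with the fatty acid carrier Fabp5 at -0.88 (limma, adjusted p = 0.248), the lipid droplet protein Plin2 at -0.64 (0.307) and the sterol exporter Abcg1 at 0.59 (0.328). Fabp5, Lpl and Plin2 are also made by adipocytes. The values of Lpl and of the lipid-handling genes include library 88. In that library the 12 lipid-handling genes summed to 3590 TPM, the lowest in sWAT, against 7010 to 7600 TPM with HFD. The part of library 88 in these differences was not tested.

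The lysosomal lists had smaller median differences than the members in sWAT, a comparison that was not tested. Values in this paragraph include library 88 except where stated. That library had the lowest cathepsin sum in sWAT, at 3170 TPM, and the highest resident macrophage sum, at 1670 TPM. All 16 proton pump subunits had negative differences, at a median of -0.15, with Atp6v1b2 at -0.36 (limma, adjusted p = 0.361), and none was called. Of 9 cathepsins 6 were negative, at a median of -0.24, with Ctsd at -0.61 and Ctsl at -0.56 (limma, adjusted p = 0.361 and 0.363). Of 9 metalloproteinases and inhibitors tested 6 were negative, with Mmp3 at -0.95 (limma, adjusted p = 0.346), Mmp14 at -0.51 (0.269) and the inhibitor Timp4 at 0.52 (0.414). The 8 receptors of osteopontin and Gpnmb were near level, at a median of 0.07. General macrophage genes had a median of -0.10, with 10 of 14 negative, or -0.21, with 12 negative, without library 88. Resident macrophage genes, such as Lyve1 and Folr2, had a median of 0.01, with 4 of 9 negative.

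In BAT these lists held 2 called genes, both lower with imeglimin. Of all 11402 genes tested there, 0.868% were called and 76.9% had a negative difference, so nothing is read from the count. Fabp5 stood at -0.36 (SE 0.07; limma, adjusted p = 0.0485) and Atp6v1a, a catalytic subunit of the proton pump, at -0.50 (SE 0.10; limma, adjusted p = 0.0446). Without libraries 79 and 94 the differences were -0.36 and -0.47 (limma, adjusted p = 0.206 for both), in a fit that called 0 of 11050 genes. After median-ratio scaling they were -0.23 and -0.36 (limma, adjusted p = 0.162 and 0.103), and leaving out any 1 library gave 0.0297 to 0.14 for Fabp5 and 0.0159 to 0.138 for Atp6v1a. Of 11 lipid-handling genes tested all were negative, at a median of -0.21, and of 16 pump subunits 15 were, at a median of -0.10 against -0.12 for all genes. The cathepsin genes Ctsd at -0.34 and Ctsb at -0.32 did not pass (limma, adjusted p = 0.0556 and 0.0591). In liver no gene of these lists was called, where 0% of 11516 genes were.

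Osteoclasts use Ctsk, Atp6v0d2 and Spp1 as well, so their defining genes were read beside them. Calcr, the calcitonin receptor, was listed at 0 TPM in every library. Dcstamp, a fusion protein of osteoclasts and multinucleated macrophages, lay between 0.0840 and 2.83 TPM in sWAT and at most at 0.176 TPM in the other tissues. Acp5, the tartrate-resistant acid phosphatase, was abundant in sWAT, at 429 to 652 TPM, with overlapping groups.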

How the data were processed

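RNA of BAT, liver and sWAT from HFD and imeglimin mice was sequenced from poly(A)-selected, strand-specific libraries, per the labels' protocols. The authors deposited TPM values, and the submitters' processing notes name STAR, RSEM and GRCm39, with versions not given in the sources used here. Each of the 30 columns summed to 1000000 TPM, so depth is unknown. No columns were identical (highest correlation between libraries 0.991), and 79 symbols belonged to more than 1 gene identifier. Groups came from the labels.

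Values were analysed as log2(TPM + 1), pseudocount 1, in genes that reached 1 TPM or more in 5 or more libraries of a fit. Differences were tested with limma 3.58.1 (trended variance, R 4.3.3, Python 3.11.15), with Benjamini-Hochberg adjustment over all genes tested and a threshold of 0.05. Tissue responses were compared as interactions over all 30 libraries. Levels relative to 14 general macrophage genes were tested by exact permutation (252 splits, 20 tests). The 27 correlations with Trem2 were tested by permutation with 100000 resamples, or exactly with fewer than 10 libraries. The tests were tested on simulated data. Promoters are from RefSeq, GRCm38.p6.

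Members and gene lists were chosen with earlier results of these data known. Genes named besides the members were up to 4 per list and tissue with the lowest p, and the 5 genes per tissue with the highest median correlation to the members once treatment means were removed. Marker genes and the osteoclast genes were named as defining genes of their lists. Alternatives were a pseudocount of 0.1, no filter, no trend, median-ratio scaling, a replicate block, Adgre1 and Csf1r as macrophage reference, and leaving out libraries. Rerunning these for Fabp5 and Atp6v1a in BAT was decided after seeing the data.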

Additional observations from a re-analysis of the deposited data

Results flagged for a closer look

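By the Dixon gap rule on TPM (critical value 0.71), a library far from the other 4 of its group was found in 8 of 60 combinations of member, tissue and treatment. The nominal rate of that rule, 5%, holds for independent, normally spread values. Members share libraries and every flagged value was a high one, so 8 of 60 is not read as an excess. In liver, imeglimin 88 stood apart for Trem2 at 1.19 TPM, with the others between 0.296 and 0.551 TPM. It also did for Gpnmb, at 3.29 TPM against 0.0281 to 0.25 TPM, and for Mmp12, at 1.42 TPM against 0.102 to 0.304 TPM. Liver HFD 83 stood apart for Trem2 at 1.26 TPM, with the others between 0.433 and 0.62 TPM, and for Cd9 at 16.0 TPM, with the others between 8.93 and 10.3 TPM. In BAT, HFD 80 stood apart for Gpnmb at 5.02 TPM, with the others between 1.29 and 1.94 TPM. BAT imeglimin 94 stood apart for Spp1 at 3.54 TPM against 0 to 0.572 TPM, and for Cd68 at 8.2 TPM against 3.1 to 4.41 TPM. No sWAT group held such a library for any member.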

How the results depend on the processing

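No alternative called a member in any of the 3 tissues, and unknown depth limits every level under 1 TPM. Replicate numbers were treated as names only, since no label ties a library to an animal. Same-number correlations between tissues exceeded 0.1 in 9 of 30 cases (range -0.48 to 0.31). Among the 5 numbers of its treatment, the own number was highest in 17 of the 30. These correlations are a description without a test, and equal numbers may mark the same animal, so fits without a block may leave out a pairing. With a replicate block, 0 members were called in each of the 3 comparisons of response between tissues, and 10, 6 and 10 in HFD sWAT against BAT, liver against BAT and liver against sWAT. The values below turned sign, or moved in number, and the cause was not tested. A pseudocount of 0.1 gave -0.0070 for Lgals3 in liver, -0.0070 for Mmp12 and -0.36 for Itgax in BAT against sWAT, and -0.15 for Ctsk in liver against sWAT. Without BAT 79 and 94, Ctsk in BAT stood at -0.0029. Median-ratio scaling gave 0.024 for Cd68 in liver against sWAT. With Adgre1 and Csf1r as reference, Cd68 stood at 0.021 in liver and 0.032 in sWAT, and Cd9 at 0.041 in sWAT. Without the 2 libraries farthest from the Trem2 median, r turned to -0.0076 for Cd9 in BAT, and to -0.12 for Spp1, -0.12 for Lgals3 and 0.21 for Ctsk in liver, and the members correlated with Trem2 numbered 0 in BAT and 0 in liver.
Leaving out 1 library gave ranges of -0.15 to 0.19 for Cd9 and -0.029 to 0.23 for Ctsk in BAT, and of -0.20 to 0.064 for Spp1 and -0.14 to 0.18 for Lgals3 in liver. The response of Spp1 ranged from -0.57 to 0.060 in BAT against liver. In liver against sWAT, that of Cd9 ranged from -0.21 to 0.044, that of Cd68 from -0.22 to 0.19, and the members called from 0 to 1. Trem2 ranged from -0.0059 to 0.31 and Itgax from -0.15 to 0.060 in HFD liver against BAT. Relative to macrophage genes in liver, Spp1 ranged from -0.13 to 0.21 and Lgals3 from -0.078 to 0.29. Members correlated with Trem2 in BAT numbered 3 to 7, the lowest without HFD 80. In liver, r ranged from -0.093 to 0.70 for Cd9, -0.30 to 0.56 for Cd68, -0.77 to 0.076 for Atp6v0d2 and -0.55 to 0.27 for Ctsk, and in sWAT from -0.0061 to 0.65 for Spp1.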
